A study of Danio rerio with 6 samples.

Results

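The embryonic globin and red cell genes of the zebrafish were followed through 6 libraries of whole embryos at 36 hours post fertilization (hpf). They are 10 genes chosen by symbol out of 34326 genes in the files, namely the alpha-type globins hbae1.1 and hbae3, the beta-type globins hbbe1.1, hbbe2 and hbbe3, the heme enzymes alas2 and urod, the transferrin receptor tfr1a, the anion exchanger slc4a1a and the transcription factor gata1a. Of these, 9 were found by symbol, and hbae1.1 by its gene ID, ENSDARG00000089475, which the files name hbae1. All 10 passed the minimum of a mean of 1 CPM, a read count scaled to the library total, that 19194 genes passed. The identifiers of the others are ENSDARG00000079305 (hbae3), ENSDARG00000089963 (hbbe1.1), ENSDARG00000045143 (hbbe2), ENSDARG00000038147 (hbbe3), ENSDARG00000038643 (alas2), ENSDARG00000006818 (urod), ENSDARG00000101322 (tfr1a), ENSDARG00000012881 (slc4a1a) and ENSDARG00000013477 (gata1a). The files give no positions of genes.

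Red cells of a zebrafish embryo carry a hemoglobin of alpha-type and beta-type chains around heme, and the embryonic chains are later replaced by adult ones. Heme is built by a chain of enzymes that starts with Alas2 in red cells, and the iron for it enters the cell through the transferrin receptor. Gata1 switches on globin, heme and membrane genes in the red cell lineage. Red cells also hold Hri, a kinase of the translation factor eIF2alpha that is restrained by heme, and eIF2alpha is shared with the kinases Gcn2 and Perk that were lowered here.

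The mutant embryos were tars-/-, homozygous for a nonsense mutation from an ENU screen in the gene of threonyl-tRNA synthetase, and they were set against their siblings. Each genotype was left uninjected or was injected at the single-cell stage with gcn2 MO or perk MO, where MO is a morpholino, an antisense oligonucleotide that lowers the amount of a protein. All embryos were kept in phenylthiourea, which blocks pigment. No library came from embryos injected with a control morpholino. Injection itself and the lowering of Gcn2 or Perk therefore cannot be told apart. Each of the 6 conditions had 1 library, the number of embryos in a library was not given in the sources used here, and no comparison of 2 libraries has a replicate check. Intervals in parentheses after a ratio are 95% intervals, from exact Clopper-Pearson bounds on how the reads divide between both libraries, and cover counting error only. In whole embryos, fewer red cells and less RNA per red cell cannot be told apart.

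The libraries held 29949451 to 47516784 counted reads (median 35418488). The mRNA of tars, the mutated gene, was at 37.3, 21.3 and 33.9 CPM in the uninjected, gcn2 MO and perk MO libraries of tars-/- embryos, against 71.6, 68.1 and 95.9 CPM in those of siblings, so the genotype labels held for it. Of the 15 pairs of libraries, the gcn2 MO library of tars-/- and the perk MO library of siblings were nearest to each other, only 67 genes being 2-fold apart or more, although they share neither genotype nor morpholino. The next pair had 246 such genes. The genes without overlap between genotypes, and those lower or higher in all injected libraries, are given below with and without these libraries. Without both of them the fit of genotype and injection has no residual degrees of freedom. Between them, 9 of the 10 genes had ratios from 0.901 for alas2 to 1.09 for hbbe1.1, while hbbe2 was 1.80-fold higher in tars-/- with gcn2 MO (1.61 to 2.03).

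All 16 matched globin genes of hemoglobin took 2.98%, 2.20% and 2.69% of the counted reads in uninjected, gcn2 MO and perk MO tars-/- embryos, against 2.36%, 2.11% and 2.15% in siblings. Their share averaged 2.62% ± 0.39 in tars-/- and 2.21% ± 0.13 in sibling libraries (SD over the 3 injection states, n = 3 each). This SD is a spread between injection states and not between replicates. The exact 2-sided permutation test, which ignored the matching by injection state, gave p = 0.2. Here 0.1 is the smallest p that 3 against 3 libraries can give. The ranges overlapped, since tars-/- with gcn2 MO lay below uninjected siblings, and without the 2 closest libraries they did not overlap. Per length, in the deposited FPKM, hbae1.1 was the highest of all globin genes, with 10650, 6669 and 8724 FPKM in tars-/- libraries and 7457, 7308 and 6672 FPKM in sibling libraries. hbbe1.1 followed among the beta-type genes with 2466 to 3783 FPKM over the 6 libraries. hbae3 was at 956 to 1562 FPKM and hbbe3 at 689 to 1052 FPKM. hbbe2 was far below them, at 25.5 to 79.9 FPKM. The first place of hbae1.1 leans on its deposited length of 728, against 1521 and 1889 for its near-identical copies hbae1.2 and hbae1.3. In CPM, hbae1.2 was above hbae1.1 in both perk MO libraries and below it in the others. With perk MO it was at 6397 against 6351 CPM in tars-/- and 4967 against 4857 CPM in siblings. The 5 adult globin genes that were matched summed to 0.902, 0.218 and 0.779 CPM in tars-/- libraries and 0.354, 0.424 and 0.301 CPM in sibling libraries, so nearly all globin mRNA came from embryonic genes in every library. The alpha-type genes exceeded the beta-type genes in summed FPKM by 1.84, 1.77 and 2.03 times in tars-/- libraries and by 1.61, 1.86 and 1.91 times in sibling libraries. This balance was lowest in uninjected siblings, and the genotypes overlapped.

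**Figure D1:**
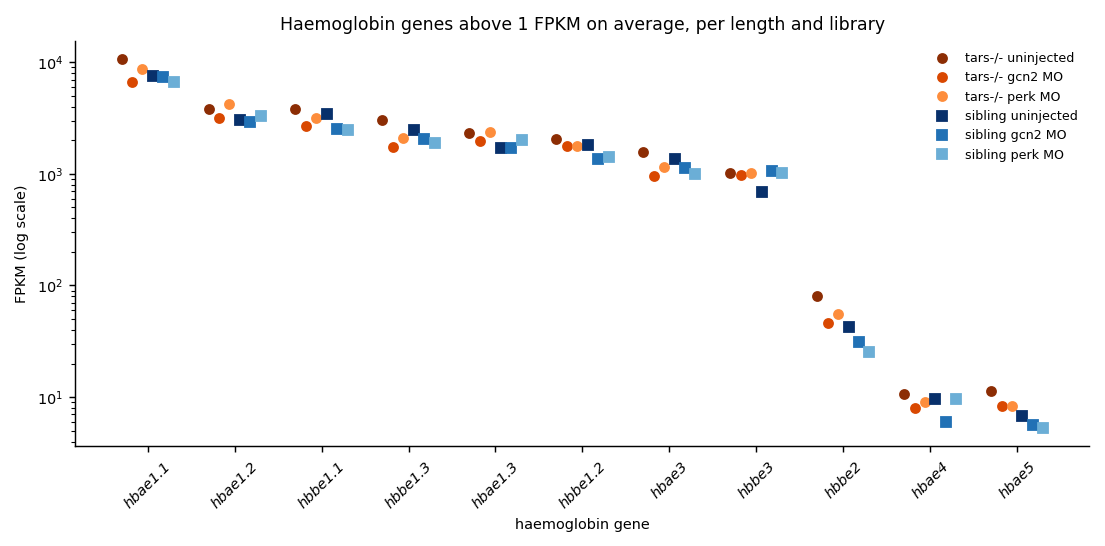
FPKM, on a log scale, of the 11 globin genes with a mean above 1 FPKM, with 1 point per library (circles, tars-/-; squares, siblings). hbae1.1 lies at the top, between 6669 and 10650 FPKM, and hbbe2 lies between 25.5 and 79.9 FPKM, with its tars-/- points above its sibling points.

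Among the 10 genes, the only one without overlap between the genotypes was hbbe2, a minor embryonic beta-type globin. It was at 47.2, 27.1 and 32.7 CPM in uninjected, gcn2 MO and perk MO tars-/- embryos, against 24.8, 18.5 and 15.03 CPM in siblings. Every tars-/- library lay above every sibling library, although the lowest of tars-/- and the highest of siblings differed by less than counting error. tars-/- embryos were 1.90-fold higher without injection (1.75 to 2.06), 1.46-fold with gcn2 MO (1.32 to 1.62) and 2.17-fold with perk MO (1.96 to 2.42). It averaged 35.6 ± 10.3 CPM in tars-/- and 19.5 ± 4.97 CPM in sibling libraries (SD over the 3 injection states, n = 3 each). The exact permutation test gave p = 0.1, the smallest it can give. Any gene without overlap gets this p, so the test adds nothing to the order of the libraries. In the same test the other genes of the 10 had p from 0.2 for alas2 to 0.9 for hbbe3 and slc4a1a. Of the 10 genes, hbbe2 alone lay above the siblings without overlap, which 3.61% of all genes did. None lay below without overlap, which 4.65% of all genes did. Without the 2 closest libraries, hbae1.1 joined hbbe2 above (11.9% of all genes), and alas2 and tfr1a lay below (26.2% of all genes). The share of hbbe2 in the hemoglobin reads kept the order of genotypes. It took 1.58, 1.23 and 1.22 of 1000 hemoglobin reads in tars-/- libraries and 1.05, 0.88 and 0.70 in sibling libraries.

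**Figure D2:**
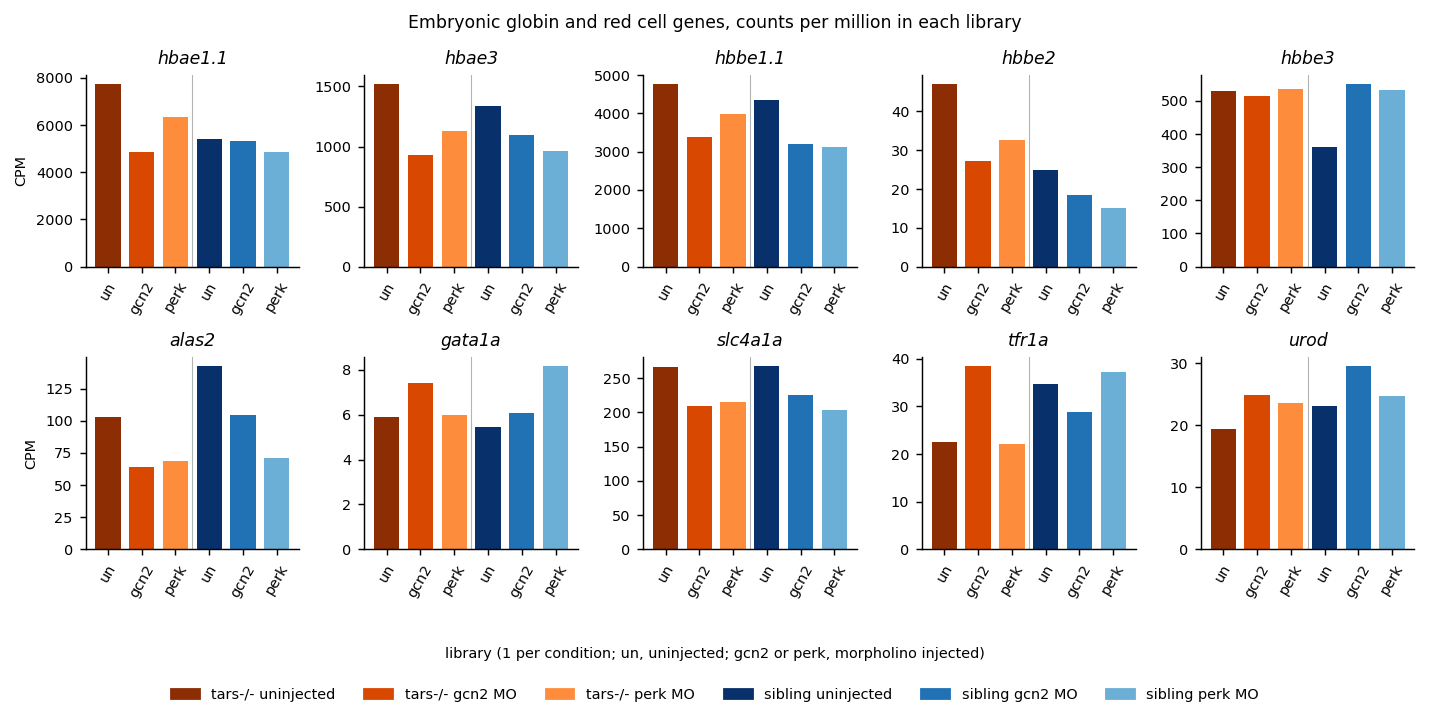
CPM of the 10 genes in the 6 libraries, 1 bar per library, with tars-/- libraries left of the sibling libraries and each panel on its own scale from 0. In the panel of hbbe2 the 3 tars-/- bars, 27.1 to 47.2 CPM, stand above the 3 sibling bars, 15.03 to 24.8 CPM.

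Of the abundant globins, hbae1.2, hbae1.3, hbbe1.1 and hbbe1.2 were higher in tars-/- in all 3 injection states, while hbae1.1, hbae3, hbbe1.3 and hbbe3 were lower in tars-/- with gcn2 MO. The share of all genes higher in tars-/- in all 3 states was not counted, and copies of a gene are not separate observations. hbae1.1 was at 7753, 4855 and 6351 CPM in uninjected, gcn2 MO and perk MO tars-/- embryos, against 5429, 5320 and 4857 CPM in siblings. Its ratio of tars-/- to siblings was 1.43 without injection (1.42 to 1.44) and 1.31 with perk MO (1.299 to 1.316), but 0.913 with gcn2 MO (0.906 to 0.919). hbae1.1 has near-identical copies, hbae1.2 and hbae1.3, between which reads could be split in counting. Summed over the 3 copies, the ratios were 1.353 without injection, 1.264 with perk MO and 1.036 with gcn2 MO, so the direction with gcn2 MO depends on whether the copies are summed. hbae1.2, named HBZ in the files, was at 5789, 4834 and 6397 CPM in tars-/- and 4583, 4404 and 4967 CPM in siblings, and hbae1.3 at 4373, 3710 and 4455 CPM in tars-/- and 3225, 3216 and 3784 CPM in siblings. hbae3, the other alpha-type gene, was at 1523, 932 and 1132 CPM in tars-/- and at 1338, 1098 and 966 CPM in siblings. It was lower in tars-/- with gcn2 MO as well, with a ratio of 0.849 (0.837 to 0.862). hbbe1.1 was at 4774, 3392 and 3972 CPM in tars-/- and 4344, 3200 and 3112 CPM in siblings. It was higher in tars-/- by 1.099-fold, 1.06-fold and 1.28-fold, and the libraries of the genotypes overlapped. Its copies hbbe1.2 and hbbe1.3 differed in direction with gcn2 MO, where the ratios were 1.314 (1.301 to 1.326) for hbbe1.2 and 0.857 (0.844 to 0.869) for hbbe1.3.

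hbbe3 is a beta-type gene of the same small cluster as hbbe2. It was at 531, 515 and 538 CPM in tars-/- embryos, uninjected, with gcn2 MO and with perk MO, and at 362, 552 and 533 CPM in siblings. The uninjected siblings were the single low library, and the other 5 lay between 515 and 552 CPM. The ratio of tars-/- to siblings was therefore 1.47 (1.437 to 1.501) without injection, 0.932 (0.913 to 0.952) under gcn2 MO and 1.01 (0.989 to 1.03) under perk MO. In the RefSeq table of a later assembly, used for gene order only, hbae4, hbbe3, hbbe2 and hbae5 form a cluster of their own, and the hbae1 and hbbe1 copies with hbae3 and the adult genes form another. hbae5, an alpha-type gene next to hbbe2, was at 14.4, 10.5 and 10.6 CPM in tars-/- and at 8.57, 7.07 and 6.68 CPM in siblings. Its libraries did not overlap between genotypes either, and the ratios were 1.68 (1.47 to 1.94), 1.48 (1.25 to 1.75) and 1.58 (1.34 to 1.87), with a fitted log2 genotype effect of 0.70 (edgeR adjusted p = 0.545, DESeq2 adjusted p = 0.278). hbae4 at the other end, named hbz in the files, was at 8.04, 6.09 and 6.82 CPM in tars-/- and at 7.28, 4.55 and 7.31 CPM in siblings, and the genotypes overlapped. In this cluster, the adjacent genes hbbe2 and hbae5 were apart by genotype, and hbae4 and hbbe3 overlapped. Of all genes, 3.61% lay above the siblings without overlap and 4.65% lay below. The gap of hbbe2 was within counting error, and hbae5 was at 14.4 CPM or less. Whether the position of these genes matters was not tested.

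**Figure D3:**
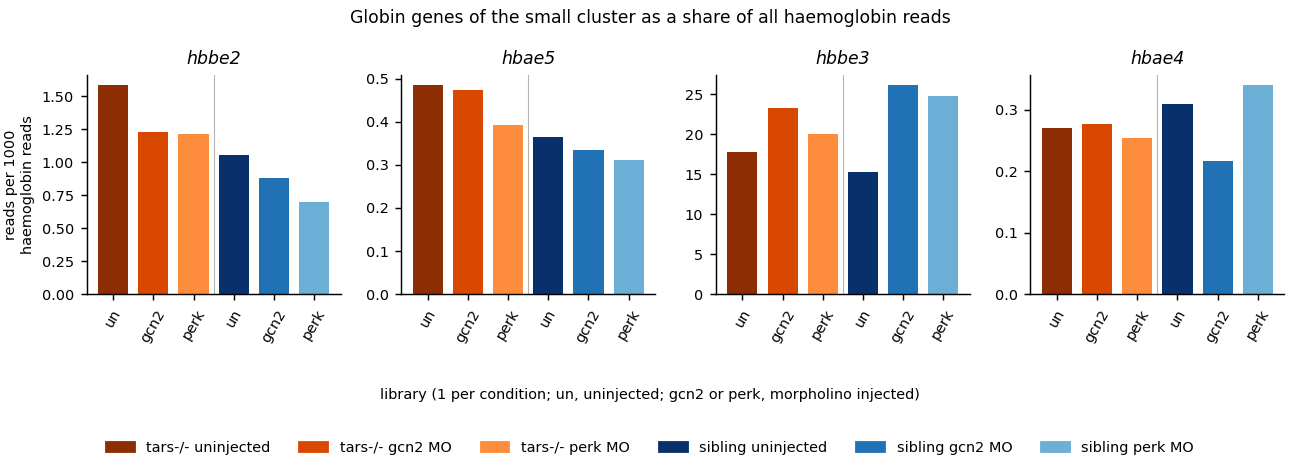
Reads of the 4 globin genes of the hbbe2 cluster per 1000 hemoglobin reads, 1 bar per library, with tars-/- libraries left of the sibling libraries. hbbe2 takes 1.22 to 1.58 in tars-/- and 0.70 to 1.05 in siblings, while hbbe3 is lowest in uninjected siblings.

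Against the uninjected library of the same genotype, 6 of the 10 genes were lower in all 4 injected libraries, namely hbae1.1, hbae3, hbbe1.1, hbbe2, alas2 and slc4a1a. This was so of 18.9% of all genes. The 4 ratios are not independent, since both morpholinos share the uninjected library of their genotype. With no control morpholino, what both morpholinos had in common was not tested apart from injection itself. Without the 2 closest libraries, 7 genes were lower in the injected libraries that remain, tfr1a being the seventh, against 31.1% of all genes. gata1a and urod were higher in all 4 injected libraries, which 22.4% of all genes were. Without the closest libraries hbbe3 joined them, against 35.8% of all genes. Under TMM scaling, the normalization of edgeR, gata1a was no longer higher in all 4.

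The size of the difference varied among the globins. hbbe2 with gcn2 MO was 0.575 of the uninjected level in tars-/- (0.529 to 0.624) and 0.746 in siblings (0.674 to 0.824). With perk MO it was 0.693 (0.646 to 0.743) in tars-/- and 0.605 (0.540 to 0.677) in siblings. hbae3 was at 0.612 and 0.743 of the uninjected level in tars-/- with gcn2 MO and perk MO, and at 0.821 and 0.722 in siblings. hbbe1.1 was at 0.710 and 0.832 in tars-/- and at 0.737 and 0.716 in siblings. All 3 genes were lower after injection in both genotypes. For hbae1.1 the level in tars-/- embryos was 0.626 (0.622 to 0.630) under gcn2 MO and 0.819 (0.815 to 0.823) under perk MO, against 0.980 (0.974 to 0.986) and 0.895 (0.889 to 0.901) in siblings, and whether these differ between genotypes was not tested. Summed over the hbae1 copies, siblings with perk MO stood at 1.03 of the uninjected level, the other direction. hbbe3 was higher after injection in siblings, where hbae1.1, hbae3, hbbe1.1 and hbbe2 were lower with both morpholinos. hbbe3 was 1.53 (1.49 to 1.56) times the uninjected level under gcn2 MO and 1.47 (1.44 to 1.51) times under perk MO. Under perk MO, siblings also had higher hbae1.2, at 1.084 (1.076 to 1.091), and hbae1.3, at 1.173 (1.164 to 1.183) times the uninjected level. In tars-/- hbbe3 was at 0.969 with gcn2 MO and 1.01 with perk MO, and the ratio with perk MO was below 1 under TMM scaling.

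**Figure D4:**
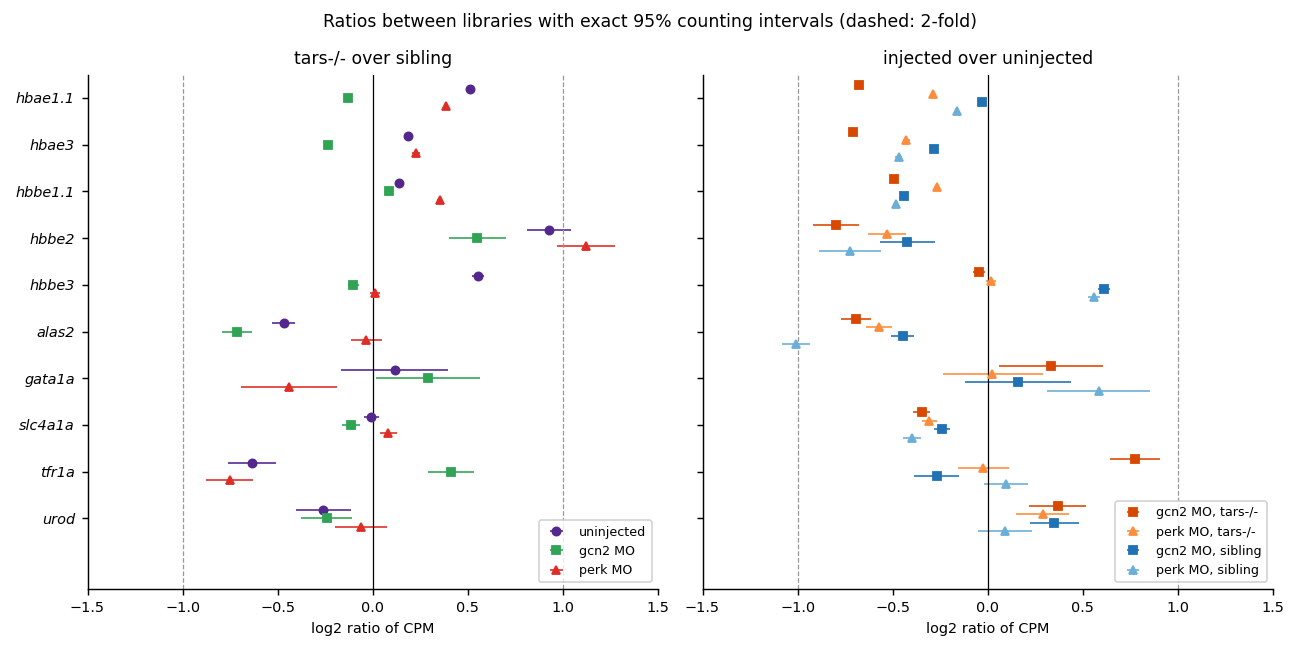
log2 ratios of CPM, with no pseudocount, of the 10 genes between 2 libraries, with exact 95% counting intervals, for tars-/- over siblings on the left and injected over uninjected on the right. hbbe2 is right of 0 in all 3 genotype ratios, 1.46-fold to 2.17-fold, and left of 0 in all 4 injection ratios, while hbbe3 is right of 0 in both injected sibling libraries.

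Of the heme enzymes, alas2 codes for the first and limiting enzyme of the pathway in red cells, and it varied by 2.23 times between its highest and lowest library. It was at 102.9, 63.7 and 69.1 CPM in uninjected, gcn2 MO and perk MO tars-/- embryos, against 142.3, 104.4 and 70.7 CPM in siblings. Uninjected siblings were the highest library, and both perk MO libraries lay within counting error of each other. The ratio of tars-/- to siblings was 0.723 (0.693 to 0.754) without injection, 0.610 (0.578 to 0.645) under gcn2 MO and 0.977 (0.925 to 1.03) under perk MO. Relative to the uninjected library, siblings were at 0.497 (0.473 to 0.523) with perk MO and at 0.734 (0.704 to 0.765) with gcn2 MO, while tars-/- embryos were at 0.672 (0.641 to 0.705) with perk MO and 0.620 (0.587 to 0.654) with gcn2 MO. alas2 and hbbe2, both lower after injection, thus stood on opposite sides of 1 between the uninjected genotypes. urod, which acts later in heme synthesis, was at 19.3, 24.9 and 23.6 CPM in tars-/- and 23.1, 29.5 and 24.6 CPM in siblings. It was lower in tars-/- in all 3 states, by ratios of 0.835 (0.755 to 0.923), 0.846 (0.771 to 0.928) and 0.958 (0.872 to 1.05), the last of which includes 1, and the genotypes overlapped.

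tfr1a, whose protein takes up iron-bound transferrin into red cells, had no common direction. It was at 22.5, 38.4 and 22.1 CPM in tars-/- embryos, uninjected, with gcn2 MO and with perk MO, against 34.8, 28.9 and 37.2 CPM in siblings. The ratio of tars-/- to siblings was 0.645 (0.590 to 0.704) without injection and 0.594 (0.545 to 0.646) with perk MO, but 1.33 (1.22 to 1.45) with gcn2 MO. Its 2 lowest libraries were both tars-/-, and its highest was tars-/- with gcn2 MO, within counting error of siblings with perk MO. slc4a1a, the anion exchanger of the red cell membrane, varied least of the 10 genes, by 1.32 times, at 266, 209 and 215 CPM in tars-/- and 267, 226 and 203 CPM in siblings. Its uninjected libraries were equal within counting error, with a ratio of 0.995 (0.968 to 1.02). gata1a was at 5.89, 7.43 and 5.998 CPM in tars-/- and 5.44, 6.08 and 8.15 CPM in siblings. Its intervals were wide at this level, and the ratio of tars-/- to siblings was 1.08 (0.892 to 1.32) without injection, 1.22 (1.01 to 1.48) under gcn2 MO and 0.736 (0.618 to 0.877) under perk MO.

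Few of the 10 genes were 2-fold apart in any of the 7 pairs of libraries, on the log2 scale after adding 0.5 CPM. Between tars-/- and siblings, 0 of 10 were 2-fold apart without injection (1.68% of all genes), 0 with gcn2 MO (3.02%) and 1, hbbe2, with perk MO (5.4%). Relative to the uninjected library, 0 of 10 were 2-fold apart in tars-/- with gcn2 MO (5.65% of all genes) and with perk MO (1.28%), and likewise 0 in gcn2 MO siblings (1.86%). In perk MO siblings the count was 1, alas2, against 7.76% of all genes. The median log2 ratio of the 10 genes was 0.12 between uninjected tars-/- and siblings, where the median of all genes was −0.11. TMM scaling moved these medians to 0.23 and 0.00, and hbbe2 then had a log2 ratio of 1.03 and was 2-fold apart there too. The medians were −0.11 with gcn2 MO and 0.05 with perk MO, against 0.02 and 0.00 for all genes. Of the injected over the uninjected libraries, the medians of the 10 genes were −0.42 and −0.28 for gcn2 MO and perk MO in tars-/- and −0.25 and −0.28 in siblings, against 0.09, 0.05, −0.02 and −0.04 for all genes. These medians pool 5 globins and 5 red cell genes. For tars-/- over siblings (uninjected, gcn2 MO, perk MO), the globin medians were 0.51, −0.10 and 0.35. The red cell medians were −0.25, −0.11 and −0.06. For gcn2 MO and perk MO over uninjected, the globin medians were −0.68 and −0.29 in tars-/- and −0.28 and −0.47 in siblings. The red cell medians there were 0.31 and −0.02 in tars-/- and −0.24 and 0.09 in siblings.

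Taking the 3 injection states of a genotype as its replication, edgeR's quasi-likelihood test was fitted to all 6 libraries with genotype and injection as terms. After Benjamini-Hochberg adjustment at 0.05, edgeR called 0 genes for genotype, gcn2 MO and perk MO, while 669, 1548 and 1535 genes were under 0.05 before adjustment. DESeq2 called 191, 87 and 91 genes. For genotype, hbbe2 had a fitted log2 effect of 0.90 (edgeR adjusted p = 0.358, 0.0016 before adjustment), and it was higher in tars-/- in 3 of 3 states. It was the only one of the 10 genes at an unadjusted p under 0.05 for genotype, against 3.49% of all genes. DESeq2 called hbbe2, with an adjusted p of 0.0059, and 0.995% of all genes. For gcn2 MO, 4 of the 10 genes were at an unadjusted p under 0.05, against 8.07% of all genes, namely alas2, hbbe2, hbae3 and hbbe1.1 with log2 effects of −0.60, −0.64, −0.53 and −0.50. For perk MO these were alas2 and hbbe2, with log2 effects of −0.78 and −0.62, against 8% of all genes. The lowest edgeR adjusted p of these was 0.618. Over the 6 libraries, hbae3 and hbbe1.1 had a Pearson r of 0.91, and hbbe1.1 and hbbe2 one of 0.85. The globins in these counts therefore cannot be taken as independent genes. Fits that leave out an injection state have fewer residual degrees of freedom, and their adjusted p are no firmer support. Without the gcn2 MO libraries, where hbbe2 had its smallest ratio of tars-/- to siblings, edgeR called 1.48% of all genes for genotype. Leaving out the gcn2 MO libraries gave an edgeR adjusted p of 0.0071 for hbbe2, leaving out the perk MO libraries 0.093 and leaving out the uninjected libraries 1.0.

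The other genes of heme synthesis and red cells were counted in the same 7 pairs, in which 1.28% to 7.76% of all genes were 2-fold apart. Of 22 further genes of heme synthesis that passed the minimum, 0 were 2-fold apart between the uninjected genotypes (1.68% of all genes) and at most 1 in any pair. Their median log2 ratio between the uninjected genotypes was −0.04, against −0.11 for all genes. The 2 genes concerned, abcb6b and slc25a38a, averaged under 3 CPM and are named here after their values were seen. alas1, the form of the first enzyme used outside red cells, was the most abundant, at 170.2, 154.0 and 134.3 CPM in tars-/- and 154.8, 128.4 and 161.1 CPM in siblings. Of 22 genes of iron uptake and handling, with a median of −0.05, 1 was 2-fold apart in any pair, isca1, which takes part in the assembly of iron-sulfur clusters. It was at 55.0, 59.9 and 65.8 CPM in tars-/- and 27.9, 27.6 and 42.0 CPM in siblings without overlap, with ratios of 1.97 (1.83 to 2.12), 2.17 (2.01 to 2.35) and 1.56 (1.47 to 1.67). Its fitted log2 genotype effect was 0.95, with an adjusted p of 0.282 by edgeR and 7.3e-04 by DESeq2. Of 18 genes of the red cell membrane and its skeleton, with a median of −0.21, 1 was 2-fold apart, epb41a, the gene of protein 4.1. It was at 95.7, 65.4 and 98.0 CPM in tars-/- and 118.8, 89.0 and 50.4 CPM in siblings, low in siblings with perk MO. Of 20 other red cell genes, with a median of −0.09, 1 was 2-fold apart in 1 pair, si:ch211-207c6.2, which averaged 3.07 CPM and is named after its values were seen. prdx2, a peroxidase of red cells and the most abundant of them, was at 191.7, 164.3 and 107.5 CPM in tars-/- and 212.7, 138.1 and 172.2 CPM in siblings. Among 6 further globin genes of hemoglobin that passed the minimum, 0 were 2-fold apart in any pair, and their median between the uninjected genotypes was 0.32.

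eif2ak1, the gene of the heme-regulated kinase Hri, was higher in tars-/- in all 3 injection states, as hbbe2 was. It was at 38.6, 20.5 and 27.9 CPM in uninjected, gcn2 MO and perk MO tars-/- embryos, against 20.7, 13.0 and 15.9 CPM in siblings. The ratios were 1.87 (1.71 to 2.04), 1.58 (1.40 to 1.79) and 1.75 (1.58 to 1.95), and all 4 injected libraries were below the uninjected one of their genotype. The tars-/- library with gcn2 MO was nevertheless just below uninjected siblings, so the genotypes overlapped. Its fitted log2 genotype effect was 0.83, with adjusted p = 0.328 by edgeR and 0.0094 by DESeq2.

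Of 21 erythroid transcription factor genes past the minimum, 1 was 2-fold higher in uninjected tars-/- than in uninjected siblings, as were 213 of all 19194 genes, and the median of the list was −0.07. It was drl, a zinc finger gene of the early blood lineage, at 10.60, 10.8 and 11.3 CPM in tars-/- and 3.69, 5.48 and 7.65 CPM in siblings, and it is named after its values were seen since it lies under the mean of 10 CPM set for naming. Its adjusted p for genotype was 0.516 by edgeR and 0.0386 by DESeq2. In the other pairs at most 4 of the 21 were 2-fold apart, the count in both tars-/- with gcn2 MO (5.65% of all genes) and siblings with perk MO (7.76% of all genes) over their uninjected libraries. Those other than drl were low in the 2 closest libraries, apart from gfi1b, which was at 4.198 CPM in tars-/- with gcn2 MO against 1.75 CPM in uninjected tars-/- and is also named after its values were seen. bcl11aa, whose mammalian counterpart represses fetal globin genes and is also active in neurons, was at 55.2, 22.9 and 35.7 CPM in tars-/- and 74.6, 37.4 and 16.5 CPM in siblings. bcl11ab was at 78.5, 35.6 and 57.5 CPM in tars-/- and 111.8, 63.1 and 23.2 CPM in siblings. gata2a and cbfa2t3, a partner of Gata1 complexes, had lows of 19.7 and 56.6 CPM in the gcn2 MO library of tars-/- and of 20.6 and 48.1 CPM in the perk MO library of siblings, where their uninjected libraries had 42.4 and 93.0 CPM in tars-/- and 43.1 and 118.7 CPM in siblings. Of these genes, gata2a and cbfa2t3 act outside red cells too, and which tissue these differences came from was not tested. mb, the gene of muscle myoglobin, was likewise low in the 2 closest libraries. It was at 8.71 CPM in the gcn2 MO library of tars-/- and 7.61 CPM in the perk MO library of siblings. The uninjected libraries of these genotypes had 16.0 and 16.3 CPM. mb was at 0.825 of the uninjected level in tars-/- with perk MO and at 0.867 in siblings with gcn2 MO.

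The summed markers of the other cells of blood and vessels overlapped between the genotypes. Each sum leans on its most abundant genes, and which cells of the whole embryo these reads came from was not tested. The 16 myeloid markers summed to 230.5 to 275 CPM in tars-/- libraries and 244 to 306 CPM in sibling libraries. The 6 thrombocyte markers summed to 152 to 163 CPM in tars-/- and 149 to 160 CPM in siblings, with 2 of them below 1 CPM in every library. The 8 markers of blood stem and progenitor cells summed to 329 to 361 CPM in tars-/- and 329 to 356 CPM in siblings, and the 13 endothelial markers to 253 to 293 CPM in tars-/- and 225 to 283 CPM in siblings. Their most abundant genes were lyz, at 36.9 to 51.2 CPM in tars-/- and 35.6 to 62.7 CPM in siblings, and thbs1b, meis1b and kdrl, for which no pair was 2-fold apart. Among these lists, marco, nfe2l1a, ptprc and flt1 were 2-fold apart in 1 or 2 pairs, each with a mean under 10 CPM. Counted by gene, 6, 6 and 11 of 13 endothelial markers were higher in tars-/- than siblings (uninjected, gcn2 MO, perk MO). For myeloid markers these were 4, 3 and 10 of 16. The median log2 ratios were −0.001, −0.01 and 0.38 for endothelial and −0.27, −0.36 and 0.17 for myeloid markers. Those of all genes were −0.11, 0.02 and 0.00. Whether these differ was not tested.

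Outside hemoglobin, 1856 genes had a mean of at least 5 CPM and a range of at least 1 log2 unit over the libraries. They were ranked by how closely they followed the mean profile of the 5 embryonic globins. Among these 5, hbbe3 did not follow the others, with a Pearson r of 0.14 with hbae1.1, −0.36 with hbae3, −0.42 with hbbe1.1 and 7.2e-04 with hbbe2. Over the 6 libraries, which share their embryos and depth among all genes, the 10 nearest of the 1856 genes had a Pearson r of 0.93 to 0.98. They were mid1ip1b, prkg1b, plin3, ppp1r15a, serpina10a, prkab1a, syngr3a, cxcr3.3, si:ch211-39i2.2 and mfn2. An r this high is partly owed to taking the top 10 of 1856 genes over only 6 libraries. Of the 5 globins, hbbe2 had the widest range, from −0.76 to 0.86 around its mean log2 CPM, and so weighed most in the profile. mid1ip1b was at 46.0, 13.4 and 30.8 CPM in uninjected, gcn2 MO and perk MO tars-/- embryos and at 20.6, 14.4 and 10.6 CPM in siblings. ppp1r15a, which codes for a phosphatase subunit acting on eIF2alpha, was at 53.3, 22.2 and 38.8 CPM in tars-/- and 30.3, 18.4 and 18.9 CPM in siblings.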

How the data were processed

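RNA from whole embryos at 36 hpf was sequenced by the authors with an NEBNext Ultra kit, and reads were mapped on GRCz10 by HISAT2 2.0.5 (the submitters' processing notes also name SAMtools 1.7). The deposited files hold, per gene, the count of reads from HTSeq, the gene length and the FPKM computed by the authors. Whether reads that fit several globin copies were counted is not given in the sources used here. CPM is the count scaled to a common library total (totals were 29949451 to 47516784), and log2 ratios were of CPM plus 0.5. The deposited FPKM equalled the count over length and total within a relative deviation of 5e-06, and was used to compare levels between genes. A difference between 2 libraries was called at 2-fold. edgeR 4.0.16 (quasi-likelihood test, genotype + injection, TMM, 2 residual degrees of freedom, Benjamini-Hochberg adjustment over 19194 genes) and DESeq2 1.42.0 were run in R 4.3.3, the rest in Python 3.11.15 with scipy 1.17.1. The fit was also run on simulated counts with genotype effects but no injection effects, which cannot show how it performs on these libraries. Injection states stand in for replicates in the fit to the real counts, so effects that differ between states count as spread.

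The 192 listed symbols include the 10 genes, and 15 of them were not matched. They were chosen with earlier results of these data known, so no list is independent support. Named from each list were genes averaging 10 CPM or more and 2-fold apart in a pair (at most 6) or otherwise the most abundant gene, and the 10 genes most like the globins. Beyond the 10 genes, hbae1.3, hbae4, hbae5, hbbe1.2, hbbe1.3 and further listed genes averaging under 10 CPM were named outside this rule. Alternatives were other scalings, pseudocounts, thresholds and filters, DESeq2, summed copies and leaving out libraries.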

Additional observations from a re-analysis of the deposited data

Results flagged for a closer look

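In 6 of the 10 genes, the same contrast went in opposite directions in different conditions, with both counting intervals away from a ratio of 1. How many of all genes did so was not counted, so this is no trait of these genes. The intervals of abundant globins are narrow, and small differences already put them away from 1. Each direction rests on 1 library per condition and the differences were not tested. Differences are of log2 ratios without a pseudocount.

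For tfr1a, gcn2 MO over uninjected was 1.71 in tars-/- and 0.830 in siblings, a difference of 1.04. The same counts give −1.04 for tars-/- over siblings in uninjected less gcn2 MO embryos, and the difference between gcn2 MO and perk MO embryos was 1.16. For hbbe3, gcn2 MO over uninjected was 0.969 in tars-/- and 1.53 in siblings, a difference of −0.66, which equals 0.66 for tars-/- over siblings in uninjected less gcn2 MO embryos. For hbae1.1, tars-/- over siblings differed by 0.65 between uninjected and gcn2 MO embryos and by −0.52 between gcn2 MO and perk MO embryos. For hbae3 these differences were 0.42 and −0.46. For gata1a and slc4a1a, tars-/- over siblings differed between gcn2 MO and perk MO embryos, by 0.73 and −0.20. All of these differences use the tars-/- library with gcn2 MO, one of the 2 closest libraries. Those between gcn2 MO and perk MO embryos also use the other one, siblings with perk MO.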

How the results depend on the processing

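Over the 70 log2 ratios of the 10 genes in 7 pairs, TMM scaling moved values by at most 0.12 with 3 sign changes, median-of-ratios size factors by at most 0.11 with 3, totals without hemoglobin genes by at most 0.01 with 1, and pseudocounts of 0.1 and 2 CPM by at most 0.03 and 0.09 with 0. Genes 2-fold apart among the 10 became 1 between uninjected genotypes and 0 in siblings with perk MO over uninjected under TMM and median-of-ratios scaling, and the second was also 0 with 2 CPM. At 1.5-fold they were 2, 1 and 2 between genotypes (uninjected, gcn2 MO, perk MO), 5 for gcn2 MO in tars-/-, and 1 and 2 for gcn2 MO and perk MO in siblings. Over all genes, 1.5-fold gave 1614, 2661, 3731, 4061, 1594, 1981 and 4581 genes in place of 322, 580, 1036, 1085, 246, 357 and 1490, and a mean of at least 5 CPM gave 206, 330, 651, 666, 133, 200 and 957. In the fit, the genotype called 2 genes with no filter on low counts, 191 with DESeq2, 285 without the gcn2 MO libraries and 133 without the perk MO libraries, where edgeR on all libraries called 0, and hbbe2 was the 1 of the 10 called by DESeq2 and without the gcn2 MO libraries. DESeq2 called 87 genes for gcn2 MO and 91 for perk MO, and 0 of the 10 for either. Fitted genotype effects that changed sign were all small, −0.0127 for gata1a and −0.0127 for slc4a1a with library totals, −0.0089, −0.050, −0.082 and −0.021 for hbae3, hbbe3, gata1a and slc4a1a without the uninjected libraries, −0.11 for gata1a without the gcn2 MO libraries and −0.012 for slc4a1a without the perk MO libraries. The genes higher in all 4 injected libraries became 1 under TMM and median-of-ratios scaling. Without the 2 closest libraries, an alternative chosen after seeing the data like the scalings of these counts, 2 of the 10 lay above and 2 below the siblings. The cause of these changes was not tested. With 1 library per condition, depth does not limit the abundant globins, whereas gata1a, at 5.44 to 8.15 CPM, has counting intervals that reach 1 in several ratios.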
